A study of Homo sapiens with 9 samples.

Results

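The empty vector line of U937 cells was compared between 12 h and 48 h of doxycycline. It carries the inducible retroviral vector without a fusion cDNA, so the comparison follows the RNA of cells that make no fusion protein through further doxycycline and culture. A gene was included when the mean of its levels at 12 h and 48 h was at least 1 FPKM (fragments per kilobase of exon, scaled to the reads in the library), and its difference was log2((48 h + 0.1)/(12 h + 0.1)). This held for 11974 of the 60623 genes listed. The rule used the mean of the same libraries that are compared, so near the limit a gene can pass through its higher library alone. For genes of low level, inclusion and difference are therefore not independent. The 3 genes just inside the limit, AC083798.1, C1orf127 and MT-TC, had mean levels of 1.0003, 1.0004 and 1.0010 FPKM and differences of -0.02, -0.34 and -4.39. The 3 genes just outside it, RNU1-16P, AP001056.1 and UCKL1-AS1, had 0.9971, 0.9979 and 0.9998 FPKM and differences of 0.51, -0.13 and 0.17.

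The study sequenced RNA of 3 U937 lines at 0, 12 and 48 h of 5 μg/ml doxycycline, with 1 library in each of the 9 conditions. U937 is a human monocytic cell line. The labels give the empty vector line the genotype WT. The other 2 lines carry HA-tagged AML1-ETO (clone #4) or ETO2-GLIS2 (clone #14) in the same puromycin-selected vector, and the stable lines were raised from single cells in medium with Tet-free serum, so 1 clone stands for each fusion. With 1 library a side there is no replicate check: no difference below was tested, and doxycycline, time in culture, the culture dish and the library cannot be told apart. In RNA from a whole culture, fewer cells of a kind and less RNA per cell cannot be told apart either.

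The 12 h library held 15136408 reads on genes, the 48 h library 15391985 and the 0 h library 16267449, as recovered from the steps between FPKM values. At these depths 3 reads on a gene of 1 kb correspond to 0.198 and 0.195 FPKM at 12 h and 48 h. Intervals in brackets are exact 95% Clopper-Pearson intervals of the log2 ratio of reads, without the pseudocount. They cover counting error only, and they are not printed for every gene. For some genes with very high values, such as LYZ, SCD and RPLP1, reads could not be recovered and there is none. Of 10 genes that mark U937 as a myelomonocytic line, 8 were measured: CD4 had 212 and 203 FPKM at 12 h and 48 h, and ITGB2, SPI1, PTPRC, CD33, LYZ, FCGR1A and CSF1R also passed the level filter. MPO, the granule peroxidase, did not exceed 0.663 FPKM, and CD68 was listed at 0, and 85.6% of its exon bases are shared with other genes. Of 8 T and NK cell markers 6 were at 0 at all 3 times, and NKG7, with 61.9, 73.2 and 89.9 FPKM at 0, 12 and 48 h, was the most abundant. Of 6 B cell markers 3 were at 0, and PAX5 was detected with 2.45 and 1.19 FPKM at 12 h and 48 h. Markers of erythroid cells and platelets summed to at most 0.185 FPKM, and those of fibroblasts and epithelium to at most 0.159 FPKM.

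Cells in culture set the transcription of several programmes by what the medium still holds and by how fast they divide. Cholesterol and fatty acid genes are switched on by the SREBP transcription factors when sterols in the endoplasmic reticulum are scarce, and are switched off when sterols or unsaturated fatty acids are plentiful. Genes for DNA replication are driven by E2F factors before S phase, whereas many mitosis genes carry CCAAT boxes and a cell cycle homology region (CHR) and peak later in the cycle. Chaperone genes respond to unfolded protein, through heat shock factor in the cytosol and through the unfolded protein response in the endoplasmic reticulum. Doxycycline itself is known to hold back translation in mitochondria.

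Promoters of 7 genes are printed because their groups carry most of what follows: 3 of the lipid genes, 2 of DNA replication, 1 of mitosis and 1 of the endoplasmic reticulum. They come from RefSeq on GRCh38.p14, 5′ to 3′ on the gene's own strand, and end at the base before the gene's outermost start, so they lie upstream of the transcript. Capitals mark, for each gene, only the motifs named for it here, found letter by letter on either strand. CCAAT on either strand is also present, in lower case, in the printed stretches of MCM6, MCM7 and HSPA5. For INSIG1 (chr7:155297678-155297877, plus strand), MSMO1 (chr4:165327509-165327668, plus strand) and SREBF2 (chr22:41832945-41833104, plus strand) these are the CCAAT box, and in SREBF2 also the sterol regulatory element TCACNCCAC. For MCM6 (chr2:135876444-135876603, minus strand) and MCM7 (chr7:100101398-100101557, minus strand) they are the E2F motif TTTCGCGC, for CCNB2 (chr15:59104986-59105145, plus strand) CCAAT and the CHR motif TTTGAA, and for HSPA5 (chr9:125241344-125241503, minus strand) the ER stress element, which contains a CCAAT box.
INSIG1: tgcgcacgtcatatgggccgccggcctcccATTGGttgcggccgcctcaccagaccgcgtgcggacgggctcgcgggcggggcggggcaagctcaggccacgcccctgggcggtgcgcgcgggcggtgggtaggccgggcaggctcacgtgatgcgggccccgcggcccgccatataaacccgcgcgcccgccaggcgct
MSMO1: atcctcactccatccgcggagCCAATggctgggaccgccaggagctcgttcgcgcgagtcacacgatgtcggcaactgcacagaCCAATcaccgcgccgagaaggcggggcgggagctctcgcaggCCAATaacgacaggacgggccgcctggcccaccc
SREBF2: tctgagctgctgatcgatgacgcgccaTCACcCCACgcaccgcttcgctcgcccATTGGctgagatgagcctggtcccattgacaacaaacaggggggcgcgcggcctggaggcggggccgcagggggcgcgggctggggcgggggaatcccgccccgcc
MCM6: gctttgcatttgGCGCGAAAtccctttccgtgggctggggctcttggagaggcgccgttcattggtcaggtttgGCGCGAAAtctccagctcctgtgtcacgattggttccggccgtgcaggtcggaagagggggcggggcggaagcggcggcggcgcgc
MCM7: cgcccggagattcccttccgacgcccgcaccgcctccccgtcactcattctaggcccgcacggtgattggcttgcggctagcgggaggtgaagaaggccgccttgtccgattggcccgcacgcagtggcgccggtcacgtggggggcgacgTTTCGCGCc
CCNB2: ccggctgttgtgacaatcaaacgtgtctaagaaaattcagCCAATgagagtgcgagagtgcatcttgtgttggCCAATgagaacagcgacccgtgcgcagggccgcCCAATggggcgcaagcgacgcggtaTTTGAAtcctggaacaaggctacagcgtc
HSPA5: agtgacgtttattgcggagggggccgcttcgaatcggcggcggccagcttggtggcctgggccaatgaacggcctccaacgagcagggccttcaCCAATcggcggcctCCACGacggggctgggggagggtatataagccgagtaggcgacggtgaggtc

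The motifs were then counted in the RefSeq promoters of each list, from 250 bases before to 50 bases after every start listed. Promoters were at hand for 16 of the 22 measured cholesterol genes, 33 of the 40 replication genes, 29 of the 35 mitosis genes, 19 of the 20 endoplasmic reticulum genes and 12 of the 13 heat shock genes, so the counts leave out the rest. CCAAT was present in 17 of 21 promoters of the cholesterol genes (81%), in 26 of 32 of the mitosis genes (81.2%) and in 25 of 42 of the replication genes (59.5%), against 34.6% of all 35116 promoters. TTTGAA was present in 22 of the 32 mitosis promoters (68.8%) and in 1 of the 42 replication promoters, against 15.2% of all. TTTCGCGC was present in 5 replication promoters (11.9%), those of MCM2, MCM3, MCM6, MCM7 and POLA2, against 0.515% of all. TCACNCCAC was found in SREBF2 alone among the 21 cholesterol promoters, against 1.13% of all. The ER stress element was present in 9 of 26 promoters of endoplasmic reticulum chaperone genes (34.6%), against 0.0769% of all. These are matches of letters in a window, and binding was not measured in these libraries.

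Between 12 h and 48 h, 241 of the 11974 genes (2.01%) were higher by more than 2-fold and 313 (2.61%) were lower by more than 2-fold. The median difference was 0.00 on the log2 scale, with 5% of genes below -0.71 and 5% above 0.68, and the SD over genes was 0.62. Most genes past 2-fold were short or weakly expressed. Among the 841 genes with under 500 bases of exon, which had a median of 16 reads over both libraries, 34.8% were past 2-fold, against 2.15% of the 11013 longer genes. Protein coding genes made up 50 of the 241 higher genes (0.516% of the 9688 measured) and 81 of the 313 lower genes (0.836%), and long noncoding RNAs 65 and 68. The counting interval lay wholly past 2-fold for 24 higher genes, 14 of them protein coding, and for 51 lower genes, 36 of them protein coding.

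**Figure D1:**
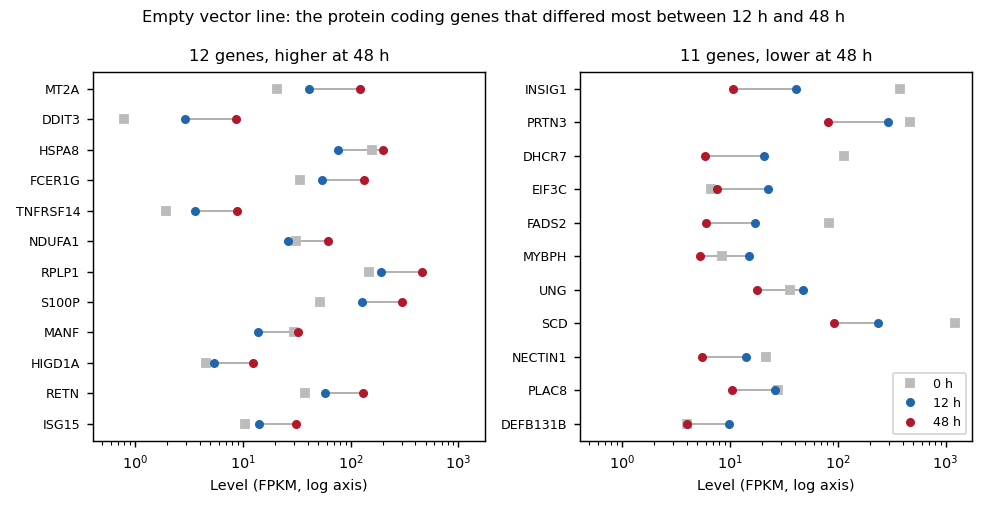
Levels in the empty vector line of the protein coding genes with the largest differences among those with a mean of at least 5 FPKM, 12 higher and 11 lower at 48 h than at 12 h. The horizontal axis is FPKM on a log scale, gray squares are 0 h, blue circles 12 h and red circles 48 h, 1 library each. INSIG1, DHCR7, FADS2 and SCD had their highest level at 0 h and their lowest at 48 h, while HSPA8 and MANF had their lowest level at 12 h.

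Genes of cholesterol synthesis and uptake were lower at 48 h than at 12 h. Of the 25 genes listed 22 were measured, 20 were lower and 2 higher by any amount, where 50.4% of all genes were lower, and 7 (31.8%) were lower by more than 2-fold, where 2.61% of all genes were. Their median difference was -0.74 and their summed level was 1683, 431 and 246 FPKM at 0, 12 and 48 h. The levels at 0 h are given to place the late difference, which shares its 12 h library with the first 12 h. INSIG1 (ENSG00000186480, chromosome 7 from 155297878 to 155310235 on GRCh38), which holds the SREBP precursors in the endoplasmic reticulum and is itself a target of SREBP, was the lowest on the list. It had 380, 41.0 and 10.7 FPKM at 0, 12 and 48 h. Its late difference was -1.93 (-2.07 to -1.81), from 2267 reads to 600.

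The enzymes of the pathway were lower on both sides of squalene. DHCR7, which makes cholesterol from its direct precursor, had 20.6 and 5.84 FPKM at 12 h and 48 h, a difference of -1.80 (-1.99 to -1.65). MSMO1, the sterol methyl oxidase, differed by -1.20 (-1.47 to -0.98), and SQLE, the squalene epoxidase, by -1.18 (-1.32 to -1.06). MVK, the mevalonate kinase, was the only measured enzyme before squalene past 2-fold, with a difference of -1.02 (-1.31 to -0.81). HMGCS1, the HMG-CoA synthase, had a smaller late difference of -0.32 (-0.61 to -0.06), from 2.45 to 1.94 FPKM, and 37.7% of its exon bases lie in exons of another gene.

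SREBF2, which encodes the sterol-responsive transcription factor of the pathway, was also lower, with 88.2, 49.1 and 26.3 FPKM at 0, 12 and 48 h and a late difference of -0.90 (-0.97 to -0.84). Its promoter is the one with the sterol regulatory element above. The 2 genes higher at 48 h were TM7SF2, a sterol reductase, by 0.75 (0.42 to 1.14) from 1.99 to 3.42 FPKM, and PMVK, the phosphomevalonate kinase, by 0.14 (-0.03 to 0.30). Of 6 genes that LXR, the sensor of excess sterols, is known to switch on, 4 were measured and none was past 2-fold. They had a median of 0.03, from -0.46 for LPCAT3 to 0.30 for SMPDL3A.

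All 10 measured genes of fatty acid synthesis were lower at 48 h, 2 of them (20%) by more than 2-fold, with a median of -0.55. Of all genes 50.4% were lower by any amount and 2.61% by more than 2-fold. SCD, the desaturase that makes oleate, had 1212, 235 and 92.8 FPKM at 0, 12 and 48 h, a late difference of -1.34. FADS2, the desaturase of polyunsaturated fatty acids, had 17.2 and 6.0 FPKM, a difference of -1.50 (-1.63 to -1.41), and FADS1, which lies beside it, 24.1 and 13.9 FPKM, a difference of -0.79 (-0.87 to -0.71). FASN, the fatty acid synthase, had 465, 57.1 and 29.7 FPKM at 0, 12 and 48 h, a late difference of -0.94 (-1.0 to -0.89). ACLY, ACACA and ACSS2, which supply acetyl-CoA and malonyl-CoA, differed by -0.44, -0.53 and -0.38. SREBF1, the transcription factor gene of this branch, differed by -0.57 (-0.66 to -0.49).

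**Figure D2:**
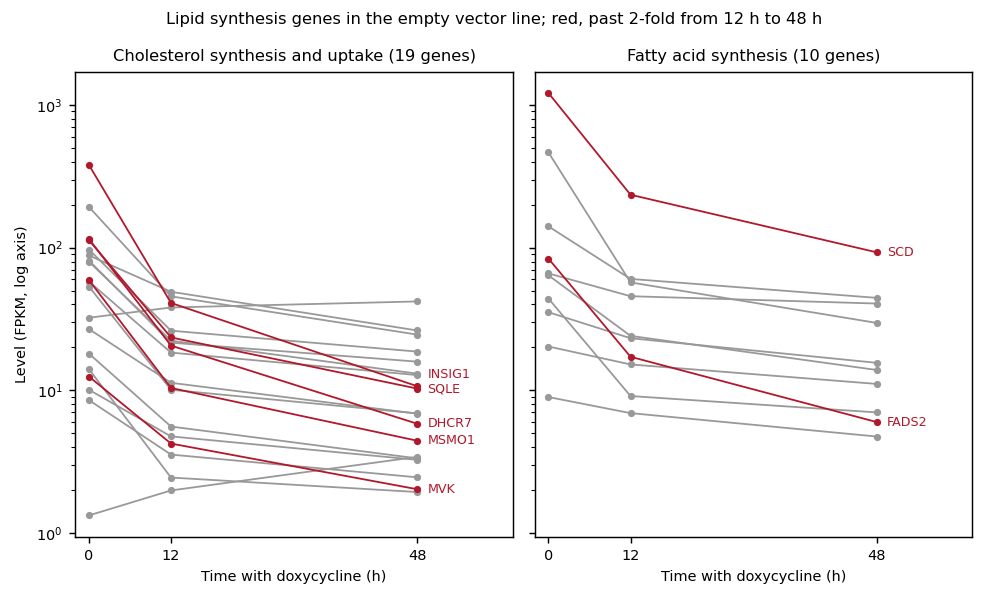
Levels in the empty vector line of 19 genes of cholesterol synthesis and uptake (left) and 10 of fatty acid synthesis (right), FPKM on a log axis against hours of doxycycline. Each line is a gene with 1 library a point, red where the 12 h and 48 h levels differ by more than 2-fold and gray otherwise. Nearly all lines go down from 0 h to 12 h and again to 48 h, and the summed cholesterol list goes from 431 to 246 FPKM in the late interval.

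The lipid lists were also lower at 48 h in the lines with a fusion protein, whose libraries are separate. From 12 h to 48 h the 22 cholesterol genes had a median of -0.68 with AML1-ETO and -0.87 with ETO2-GLIS2, and the fatty acid genes -0.47 and -0.33. SREBF2 differed by 0.29 and -0.59 in those lines, against -0.90 in the empty vector line. INSIG1 differed by -2.85 with AML1-ETO and -1.86 with ETO2-GLIS2. Differences between lines were not tested.

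DNA replication genes were lower at 48 h while mitosis genes were not. All 40 replication genes were measured: 37 were lower and 3 higher by any amount, 2 (5%) were lower by more than 2-fold, and the median was -0.50. Over all genes 50.4% were lower by any amount and 2.61% by more than 2-fold. All 6 subunits of the MCM helicase, which unwinds DNA at replication forks, were lower. MCM5 had 37.7, 46.7 and 20.9 FPKM at 0, 12 and 48 h, a late difference of -1.16 (-1.23 to -1.09). MCM2 had 77.5, 80.2 and 36.0 FPKM, a late difference of -1.15 (-1.22 to -1.09). MCM4 differed by -0.91, MCM6 by -0.71, MCM3 by -0.69 and MCM7 by -0.66. Unlike the lipid genes, these genes were near their 0 h level at 12 h, and the list's median over the first 12 h was 0.08.

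Among origin and loading factors, ORC6 was higher by 0.07 (-0.05 to 0.19), while ORC1 differed by -0.88 (-1.0 to -0.77), MCM10 by -0.94 (-1.11 to -0.79), CDC45 by -0.77 (-0.90 to -0.64), CDC6 by -0.56 (-0.69 to -0.43) and CDT1 by -0.50 (-0.59 to -0.41). The enzymes that supply nucleotides split. TK1, the thymidine kinase, differed by -0.72 (-0.87 to -0.57). RRM2, the small subunit of ribonucleotide reductase, was higher by 0.14 (0.09 to 0.19), with 43.0 and 47.4 FPKM, whereas RRM1, the large subunit, differed by -0.51 (-0.60 to -0.42). PCNA, the sliding clamp and the most abundant of the list, had 198 and 157 FPKM, a difference of -0.33 (-0.39 to -0.26). UNG, the uracil glycosylase of DNA repair, was among the 12 protein coding genes furthest below their 12 h level of those with a mean of at least 5 FPKM, with 48.0 and 17.7 FPKM at 12 h and 48 h and a difference of -1.43 (-1.57 to -1.31). Of the cell cycle regulators upstream, E2F1 differed by -0.69 (-0.83 to -0.56) and CCNE2 by -0.75 (-1.0 to -0.54), and CDKN1A, which encodes the CDK inhibitor p21, was higher by 0.81 (0.67 to 0.95), from 14.3 to 25.2 FPKM. The 20 measured genes of that list had a median of -0.03, with none past 2-fold.

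Of 38 mitosis genes 35 were measured, 20 were higher and 15 lower by any amount, none was past 2-fold, and the median was 0.07. Over all genes 49.6% were higher and 50.4% lower by any amount. UBE2C, which hands ubiquitin to the anaphase-promoting complex, was highest with 0.55 (0.38 to 0.72), followed by BIRC5, survivin, with 0.52 (0.40 to 0.65) and CDK1, the mitotic kinase, with 0.42 (0.33 to 0.51). CCNB1 and CCNB2, the B cyclins, were higher by 0.13 (0.05 to 0.20) and 0.12 (0.04 to 0.20). TOP2A had 104 and 118 FPKM at 12 h and 48 h, a difference of 0.17 (0.13 to 0.21), and MKI67, the proliferation marker Ki-67, 76.8 and 65.5 FPKM, a difference of -0.23 (-0.26 to -0.20). KIF20A, a kinesin of cytokinesis, was the lowest with -0.57 (-0.69 to -0.46). In the AML1-ETO line both lists were lower from 12 h to 48 h, with medians of -1.45 for replication and -0.85 for mitosis, and in the ETO2-GLIS2 line the medians were -0.92 and 0.01.

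**Figure D3:**
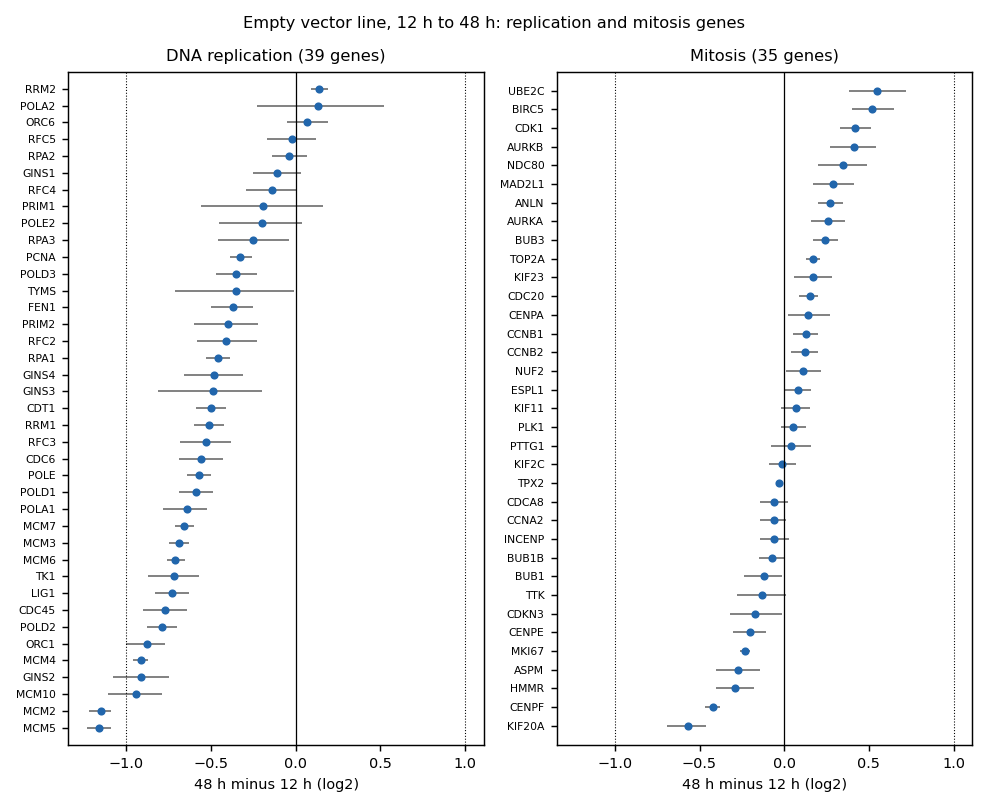
Difference between 48 h and 12 h in the empty vector line for 39 replication genes (left) and 35 mitosis genes (right), log2 of FPKM plus 0.1. Points are single genes, gray lines the 95% counting intervals where reads could be recovered, and dotted lines mark 2-fold. The replication genes lie from -1.16 to 0.14, mostly left of 0, and the mitosis genes lie on both sides of 0, from -0.57 to 0.55.

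Genes for the granules of immature myeloid cells were lower at 48 h, although they had not all been lower at 12 h. Of 14 genes 12 were measured, 10 were lower, 3 of them (25%) by more than 2-fold, and the median was -0.59. Among all genes 50.4% were lower by any amount and 2.61% by more than 2-fold. PRTN3 (chromosome 19 from 840999 to 848175), the granule proteinase 3, had 469, 291 and 81.0 FPKM at 0, 12 and 48 h, a late difference of -1.84 (-1.93 to -1.76). ELANE, neutrophil elastase, had 428, 355 and 157 FPKM, a late difference of -1.18 (-1.24 to -1.11). LYZ, lysozyme, was highest at 12 h, with 519, 775 and 380 FPKM, a late difference of -1.03. SRGN, the granule proteoglycan, and RNASE2, a granule ribonuclease, differed by -0.59 and -0.40 (-0.50 to -0.31), and CTSG and AZU1, 2 more granule proteins, by -0.55 (-0.64 to -0.46) and -0.46 (-0.53 to -0.39). CFD, complement factor D, was higher by 0.35 (0.20 to 0.49). From 12 h to 48 h the same list had a median of -4.73 with AML1-ETO and -1.49 with ETO2-GLIS2.

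Surface receptor genes of monocytes lay on both sides of 0, while most measured genes of the S100 and annexin list were higher at 48 h. FCER1G, the signalling chain of Fc receptors, had 34.3, 54.1 and 133 FPKM at 0, 12 and 48 h, a late difference of 1.30 (1.18 to 1.42). TYROBP, the related adaptor DAP12, had 21.0 and 28.8 FPKM, a difference of 0.46 (0.24 to 0.68), and ITGAM, which encodes CD11b, 1.96 and 2.78 FPKM, a difference of 0.48 (0.21 to 0.79). CX3CR1, the fractalkine receptor, was lower by -1.13 (-1.61 to -0.78), from 2.91 to 1.28 FPKM. The 16 measured surface genes had a median of 0.06, with 8 higher and 8 lower. Receptor genes outside that list also differed in both directions. CD180 differed by -2.39 (-2.93 to -2.16), LILRA1 by -1.09 (-1.49 to -0.78) and C5AR1 by 1.10 (0.82 to 1.44). On the S100 and annexin list 11 of 13 genes were measured, and 10 had a difference of 0.00 or more. S100A8, with at most 0.0741 FPKM, and S100A12, at 0, did not pass the level filter. By more than 2-fold 2 (18.2%) were higher, where 2.01% of all genes were. For comparison, 49.6% of all genes were higher by any amount. S100A3, an S100 gene outside this list, was lower by -1.35 (-2.67 to -0.37), from 2.12 to 0.773 FPKM. S100P, an S100 protein, had 52.3, 127 and 298 FPKM, a late difference of 1.23 (1.11 to 1.34), and S100A6, calcyclin, 60.3, 57.6 and 123 FPKM, a late difference of 1.09 (0.97 to 1.21). S100A4 was higher by 0.96 (0.87 to 1.04) and S100A11 by 0.71 (0.65 to 0.77). RETN, resistin, had 37.6, 57.4 and 130 FPKM, a late difference of 1.18 (1.02 to 1.35).

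Other host defence genes lay on both sides of 0. NCF4, a cytosolic subunit of the phagocyte NADPH oxidase, was higher by 0.79 (0.71 to 0.89), from 46.9 to 81.3 FPKM, and CYBA, its membrane subunit p22phox, by 0.55 (0.47 to 0.63). The MHC class I genes had a median of 0.35 over 12 measured. B2M, the light chain of class I molecules, was higher by 0.64 and HLA-C by 0.22 (0.17 to 0.27). Reads could be shared among the HLA genes, whose sequences are alike. ISG15, a ubiquitin-like protein that interferon induces, was the only one of 16 measured interferon-stimulated genes past 2-fold, with 14.1 and 31.4 FPKM at 12 h and 48 h and a difference of 1.15 (0.90 to 1.41), and the list had a median of 0.21, against 3.57 in the AML1-ETO line. Among the chemokines and cytokines, CXCL8, interleukin 8, had 5.02, 1.27 and 5.34 FPKM, a late difference of 1.99 (1.59 to 2.59) from 43 to 184 reads. TNF had 2.49, 1.10 and 3.02 FPKM, a late difference of 1.38 (0.81 to 2.13) from 28 to 78 reads. CCL5, which attracts T cells and monocytes, had 36.7, 39.3 and 18.4 FPKM, a late difference of -1.09 (-1.27 to -0.93). CTSD, a lysosomal protease, was higher by 0.85 (0.78 to 0.92), with 48.2% of its exon bases shared with other genes, and the lysosome list had a median of 0.19.

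The transcription factors of the monocytic lineage stayed within 2-fold. SPI1, which encodes PU.1, had 67.0, 76.9 and 97.3 FPKM, a late difference of 0.34 (0.26 to 0.42), and CEBPB had 21.0, 42.1 and 50.3 FPKM, a late difference of 0.26 (0.14 to 0.37). CEBPA, with 43.9% of its exon bases shared with other genes, was higher by 0.21 (0.14 to 0.28), ID2 by 0.83 (0.65 to 1.02) and CEBPE by 0.77 (0.51 to 1.04), while IRF8 was lower by -0.49 (-0.55 to -0.43) and MYB by -0.20 (-0.25 to -0.15). RUNX1, which encodes AML1, had 21.9 and 26.2 FPKM, a difference of 0.26 (0.21 to 0.31), and RHOU, a small GTPase gene, 33.0 and 44.3 FPKM, a difference of 0.42 (0.34 to 0.51). CBFA2T3 and GLIS2, the partners in ETO2-GLIS2, differed by -0.09 (-0.26 to 0.08) and 0.03 (-0.22 to 0.29). RUNX1T1, which encodes ETO, was at 0 at 0 h and 12 h and had 5 reads at 48 h. Of 20 measured factors 10 were higher and 10 lower, with a median of 0.10, where 49.6% of all genes were higher and 50.4% lower.

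Most genes of the heat shock list were higher at 48 h than at 12 h, where several had been below their 0 h level. For these genes and those of the endoplasmic reticulum below, the early and late differences share the 12 h library. A low value in that library alone would lower the first and raise the second. HSPA8 (chromosome 11 from 123057489 to 123062462), the constitutive cytosolic HSP70, had 158, 77.3 and 201 FPKM at 0, 12 and 48 h. Its late difference of 1.38 (1.33 to 1.42) rested on 5672 and 14976 reads. DNAJA1, its cochaperone, had 61.3, 38.7 and 71.9 FPKM, a late difference of 0.89 (0.80 to 0.98), and DNAJB1, another, was higher by 0.70 (0.58 to 0.82). HSPH1, the nucleotide exchange factor, had 23.7, 16.1 and 24.1 FPKM, a late difference of 0.58 (0.50 to 0.66). HSP90AB1, the most abundant of the list, had 673, 443 and 473 FPKM, a late difference of 0.09. Of 13 measured heat shock genes 11 were higher, 1 of them by more than 2-fold, and the median was 0.39 late and -0.55 over the first 12 h. Late, 49.6% of all genes were higher by any amount and 2.01% by more than 2-fold. The heat shock element, searched as 3 alternating blocks, was present in 5 of 18 promoters of the list (27.8%), HSPA8 and HSP90AB1 among them, against 0.49% of all promoters. In the AML1-ETO and ETO2-GLIS2 lines the heat shock list had late medians of 0.21 and -0.09. HSPA8 differed there by -0.88 and -0.22, from 234 to 127 FPKM and from 183 to 157 FPKM.

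Genes of the endoplasmic reticulum list lay on both sides of 0. HSPA5, the luminal HSP70 BiP whose promoter is printed above, had 248, 158 and 245 FPKM, a late difference of 0.64. MANF, a secreted factor that binds BiP, had 30.2, 14.0 and 32.8 FPKM, a late difference of 1.22 (1.07 to 1.39), and SDF2L1, a BiP partner, 19.0, 8.11 and 16.6 FPKM, a late difference of 1.02 (0.72 to 1.34). XBP1, a transcription factor of the unfolded protein response, was higher by 0.68 (0.61 to 0.75). Several disulfide isomerases and the lectin chaperone calreticulin were lower, while CANX, calnexin, differed by -0.05 and HSP90B1, the luminal HSP90, by 0.02 (-0.03 to 0.06). P4HB had 453 and 289 FPKM, a difference of -0.65, PDIA6 differed by -0.58 (-0.64 to -0.53), PDIA4 by -0.46 (-0.53 to -0.40) and CALR, calreticulin, by -0.50. The 20 genes had a median of 0.15, with 13 higher and 7 lower, where 49.6% of all genes were higher by any amount. Their summed level was 2713, 2116 and 1870 FPKM at 0, 12 and 48 h. By more than 2-fold 2 (10%) were higher, where 2.01% of all genes were. Of the 7 genes with an ER stress element in a promoter, HSPA5 and XBP1 were higher by 0.64 and 0.68, PDIA6 and CALR differed by -0.58 and -0.50, and CANX, HSP90B1 and CRELD2 by -0.05, 0.02 and 0.08. In the AML1-ETO and ETO2-GLIS2 lines the late medians of this list were 0.07 and -0.01. MANF differed there by -0.78 and -0.17, and SDF2L1 by -1.10 and -0.76.

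Genes of the ATF4 response, which amino acid shortage and mitochondrial stress induce, were mostly higher at 48 h than at 12 h. Of 29 measured 24 were higher and 5 lower, 2 (6.9%) past 2-fold, and the median was 0.31, after 0.72 over the first 12 h. Late, 49.6% of all genes were higher by any amount and 2.01% by more than 2-fold. DDIT3, which encodes CHOP, had 0.80, 2.93 and 8.65 FPKM, a late difference of 1.53 (1.12 to 2.02), and 39.6% of its exon bases are shared with other genes. DDIT4, an inhibitor of mTORC1 signalling, had 1.77, 8.85 and 18.7 FPKM, a late difference of 1.07 (0.87 to 1.29). SLC7A11, the cystine transporter, was higher by 0.96 (0.86 to 1.08) and PPP1R15A, the phosphatase subunit that restores translation, by 0.82 (0.73 to 0.92). The enzymes of serine synthesis differed less: PHGDH had 81.7 and 77.1 FPKM, a difference of -0.08 (-0.12 to -0.05), and PSAT1 181 and 231 FPKM, a difference of 0.35 (0.30 to 0.40). The 20 cytosolic aminoacyl-tRNA synthetases had a median of 0.00, from -0.38 to 0.32. In the AML1-ETO and ETO2-GLIS2 lines the ATF4 list had late medians of 0.66 and 0.75. MT2A, a metallothionein, had the largest increase among protein coding genes with a mean of at least 5 FPKM: 20.7, 41.6 and 123 FPKM, a late difference of 1.56 (1.43 to 1.7). MT1E, its relative, was higher by 0.98 (0.76 to 1.22), and MTF1, the metal-sensing factor that drives them, differed by -0.03 (-0.17 to 0.11); reads could be shared among metallothionein genes, whose sequences are alike.

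The 13 mRNAs of the mitochondrial genome stayed close to their 12 h level, with a median of 0.05, 8 higher and 5 lower, none past 2-fold. Their share of all FPKM was 21.3% at 0 h, 14.1% at 12 h and 13.5% at 48 h. MT-CO1, the catalytic subunit of cytochrome oxidase, had 15028, 7692 and 6606 FPKM, a late difference of -0.22, and MT-ND3, a complex I subunit, 1235, 843 and 1382 FPKM, a late difference of 0.71 (0.66 to 0.77). The same list had late medians of -1.61 with AML1-ETO and -0.80 with ETO2-GLIS2. The nuclear genes for complex I had a median of 0.39 over 31 measured, 29 of them higher. Those for complexes II to V had 0.42 over 36, with 34 higher, where 49.6% of all genes were higher. NDUFA1, a small complex I subunit, had 31.0, 26.4 and 62.5 FPKM, a late difference of 1.24 (0.98 to 1.51), NDUFB1 differed by 1.08 (0.82 to 1.38), ATP5F1E, a small subunit of ATP synthase, by 1.09 (0.85 to 1.42) and NDUFS1, the largest complex I subunit, by 0.00 (-0.08 to 0.08).

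Every one of the 78 measured genes for cytosolic ribosomal proteins had a difference of 0.00 or more, where 49.6% of all genes were higher, and the median was 0.48. Their summed level was 15353, 16174 and 22304 FPKM at 0, 12 and 48 h. RPLP1 and RPLP2, the acidic stalk proteins, had 193 and 457 FPKM and 199 and 406 FPKM, differences of 1.24 and 1.02 (0.98 to 1.07). RPL39 and RPS27, which are among the smallest ribosomal proteins, differed by 1.09 (1.01 to 1.18) and 1.01 (0.95 to 1.06). RPL3, one of the largest, had 423 and 424 FPKM, a difference of 0.00. RPLP1, RPLP2, RPL39 and RPS27 were the only 4 of 78 (5.13%) higher by more than 2-fold, where 2.01% of all genes were. Ribosome biogenesis factors, which assemble ribosomes, had a median of -0.05, with NCL, nucleolin, at -0.33 and NPM1, nucleophosmin, at -0.19. The host genes of small nucleolar RNAs, many of which share the 5′ pyrimidine tract of ribosomal protein mRNAs, had a median of 0.24, with 13 of 14 higher. SNHG12 was highest with 0.95 (0.75 to 1.18), and GAS5 had 83.4 and 101 FPKM, a difference of 0.27 (0.22 to 0.32).

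Among protein coding genes, the median difference was higher the shorter the exon length. Over genes of every type with under 500 bases of exon, 135 of 841 were higher and 158 lower by more than 2-fold. Protein coding genes with under 1000 bases of exon had a median difference of 0.33 (113 genes), those of 1000 to 1999 bases 0.18 (660 genes), those of 2000 to 3999 bases 0.05 (2499 genes), those of 4000 to 7999 bases -0.02 (4190 genes) and those of 8000 bases or more -0.06 (2132 genes). In the AML1-ETO line the order was opposite, from -0.34 to 0.11, and in the ETO2-GLIS2 line the medians went from 0.00 to 0.10. After the median of the genes nearest in exon length was subtracted from each gene, the ribosomal proteins had a median of 0.47, complex I 0.27, complexes II to V 0.37, the cholesterol genes -0.78, the replication genes -0.50 and the granule genes -0.68. The exon length is the one that the FPKM values imply, and transcript length was not measured. The ribosomal list had a median exon length of 3095 bases, so its genes were set against genes near that length. The part of transcript length, or of RNA quality, in these results was not tested.

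**Figure D4:**
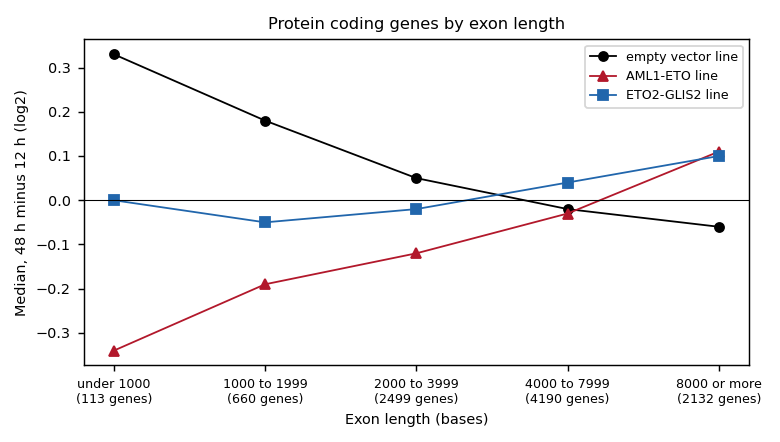
Median difference between 48 h and 12 h (log2) of protein coding genes in 5 classes of exon length, for the empty vector line (black circles), the AML1-ETO line (red triangles) and the ETO2-GLIS2 line (blue squares), 1 library a time point. In the empty vector line the median goes from 0.33 in the shortest class to -0.06 in the longest, and in the AML1-ETO line from -0.34 to 0.11.

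A few large differences rest on genes whose reads are uncertain. EIF3C, a subunit of a translation initiation factor, had 6.73, 22.7 and 7.62 FPKM, a late difference of -1.56 (-1.69 to -1.46), while EIF3CL, its nearly identical copy, had 0.895, 1.33 and 1.35 FPKM. NPIPA7, of a multicopy family, had 0.132, 4.01 and 0.325 FPKM, the largest late decrease of a protein coding gene (-3.27, interval -4.98 to -2.52) from 85 to 7 reads, and DEFB131B, a short defensin gene, 32 and 13 reads. How reads are divided among near copies was not tested. Among the remaining large decreases were MYBPH, a myosin-binding protein gene, by -1.49 (-1.79 to -1.24), NECTIN1, a cell adhesion receptor, by -1.33 (-1.48 to -1.21), and PLAC8, from 26.2 to 10.5 FPKM, by -1.31 (-1.46 to -1.19). TNFRSF14, the receptor HVEM, was higher by 1.26 (1.10 to 1.47), from 3.64 to 8.87 FPKM, and HIGD1A, a mitochondrial inner membrane protein, by 1.18 (0.90 to 1.49).

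The protein coding genes past 2-fold were also read over the same interval in the other lines, as values without a test. For the 81 protein coding genes lower in the empty vector line, the median was -1.20 in the AML1-ETO line, where 69 of them were lower by any amount. Their median was -0.87 in the ETO2-GLIS2 line, where 69 were lower. In the AML1-ETO line 47 of those 81 genes were lower and 4 higher by more than 2-fold. Of the 12372 genes measured in that line, 8.45% were higher and 9.88% lower by that much. Those shares cover genes of every type and are not limited to protein coding genes. Of the 50 higher genes, 9 were higher and 7 lower by more than 2-fold there. Among all protein coding genes measured, 52.4% and 46.2% were lower in those lines. The 50 higher genes had medians of 0.08 and 0.43, with 28 and 39 of them higher, against 47.6% and 53.7% of all. Across the 7272 genes with a mean of at least 5 FPKM, the late differences of the empty vector line correlated with Pearson's r = 0.39 against the ETO2-GLIS2 line and r = 0.18 against the AML1-ETO line, over genes that are not independent and share exon lengths between the lines.

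**Figure D5:**
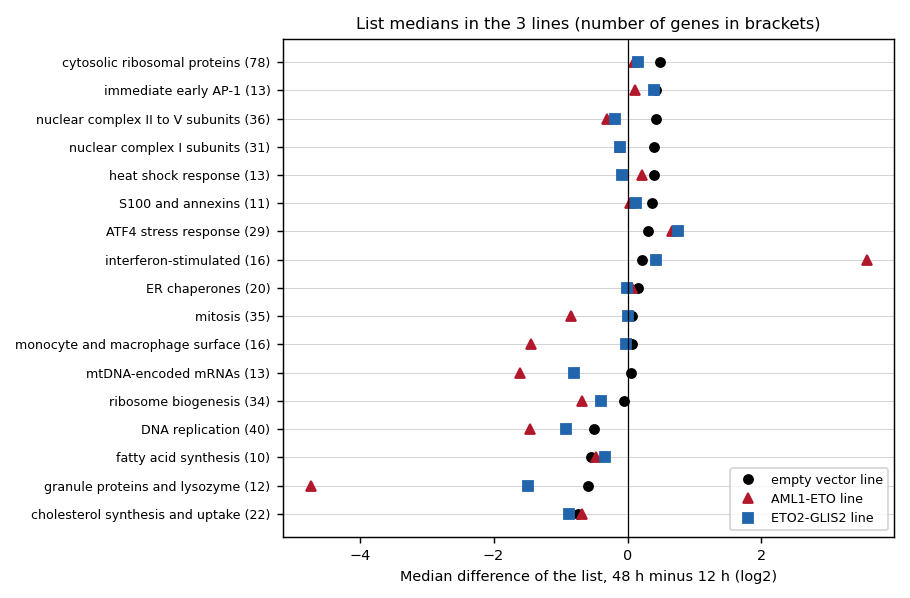
Median difference between 48 h and 12 h (log2) of 17 gene lists in the empty vector line (black circles), the AML1-ETO line (red triangles) and the ETO2-GLIS2 line (blue squares), with the number of genes in brackets. The cholesterol list lies at -0.74, -0.68 and -0.87, while the granule list lies at -0.59, -4.73 and -1.49 and the ribosomal proteins at 0.48, 0.10 and 0.15.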

How the data were processed

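RNA of the empty vector, AML1-ETO and ETO2-GLIS2 lines was sequenced as 1 library for each line and time. Per the labels and the study's methods, the authors aligned reads to hg38 with HISAT2 2.0.5, handled alignments with SAMtools 1.7, counted reads per gene with HTSeq 0.9.1 and deposited FPKM values made with an R script. The annotation version and the strand setting of the counting are not given in the sources used here.

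Differences were log2 ratios of FPKM with a pseudocount of 0.1 FPKM, which understates differences of low genes, for genes with a mean of at least 1 FPKM. FPKM values were whole multiples of 1 read for 23791 of 23889 genes (99.6%, tolerance 0.02 reads). Exact Clopper-Pearson intervals at 95% were computed from those reads with Python 3.11.15 and scipy 1.17.1 and cover counting error only. No test was made with 1 library a condition, and genes past 2-fold were counted. Gene types were matched by identifier for 96.6% of genes (58555) in GENCODE, and positions and promoters came from RefSeq (GRCh38.p14).

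The members and gene lists were chosen with earlier results of these data known. Named were the 12 protein coding genes with the largest difference in each direction among those with a mean of at least 5 FPKM and 30 reads, up to 4 members of each list past 2-fold (or 3 of the highest level), the 5 most abundant genes past 2-fold in each direction, and 7 genes of the study's subject. Other list members were named after their values were seen, and some members that enter the counts and medians are not reported here or drawn. Alternatives changed the pseudocount, filter, scaling, reference library and fold limit.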

Additional observations from a re-analysis of the deposited data

Results flagged for a closer look

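For 6 genes named here the difference from 12 h to 48 h was past 2-fold in opposite directions in the empty vector line and in the AML1-ETO line, where 8.45% of all genes were higher and 9.88% lower by more than 2-fold, with 1 library for each line and time, and whether the lines differ was not tested. RETN, resistin, was higher by 1.18 in the empty vector line and had a difference of -6.45 in the AML1-ETO line. S100A6 had 1.09 and -2.40, FCER1G, the Fc receptor chain, 1.30 and -1.29, and SDF2L1, the partner of BiP, 1.02 and -1.10. CCL5, the chemokine, had -1.09 in the empty vector line and 1.24 in the AML1-ETO line. HIST1H3H, a replication-dependent histone gene at low level, had -1.40 (-2.76 to -0.48), from 29 to 10 reads, and 1.30.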

How the results depend on the processing

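With a pseudocount of 1 FPKM, 132 genes were higher and 165 lower by more than 2-fold, against 241 and 313. A mean of at least 5 FPKM left 47 and 53, and no filter gave 1926 and 2336. Against the mean of 0 h and 12 h, 378 were higher and 247 lower, so that 60.5% of these genes were higher, against 43.5%. A limit of 1.5-fold gave 800 and 845, a limit of 4-fold 63 and 91, a counting interval wholly past 2-fold 24 and 51, protein coding genes 50 and 81, and, chosen after seeing the data, exons of at least 500 bases 94 and 143. A pseudocount of 0.01 FPKM, scaling by median ratios, to a common total, without mitochondrial genes and, chosen after seeing the data, by exon length kept both counts within 1.5 times. Without a filter the T and NK markers had a median of -0.58, over NKG7 and CD2, which had 0.283 and 0.0397 FPKM at 12 h and 48 h. Against the mean of 0 h and 12 h the immediate early genes had a median of -0.07. That reference includes their 0 h levels, up to 73.1 FPKM for FOS, and their median over the first 12 h was -0.85. Of 44 named genes past 2-fold, 36 were still past it with a pseudocount of 1 FPKM, 41 after scaling to a common total, 34 of 41 after scaling by exon length and 31 of 43 against the mean of 0 h and 12 h, all in the same direction. No paired analysis was possible because each condition had 1 library, and no library could be left out for the same reason. Depth limits genes near 0.198 FPKM, the level of 3 reads on 1 kb at 12 h.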

Other observations

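Of 20 splicing factor genes that carry poison exons, 16 were higher at 48 h and none was past 2-fold, with a median of 0.20. Over all genes 49.6% were higher. SRSF2 had 30.9 and 49.4 FPKM at 12 h and 48 h, a difference of 0.68 (0.58 to 0.77), and CLK1, a kinase of splicing factors, 22.0 and 30.2 FPKM, a difference of 0.45 (0.36 to 0.54). Of 14 measured BCL2 family genes 9 were higher, among them BCL2A1, which protects from apoptosis, with 0.94 (0.67 to 1.22) and PMAIP1, which promotes it, with 0.76 (0.57 to 0.97), while BCL2 had -0.51 (-0.71 to -0.35). Immediate early genes had a median of 0.43 over 13 measured, after -0.85 over the first 12 h, and FOS, which had 73.1 FPKM at 0 h, had 3.01 and 3.98 FPKM at 12 h and 48 h. Genes of the NRF2 response had a median of 0.27 over 14, with NQO1 at 0.67 (0.50 to 0.85) and TXN, thioredoxin, at 0.54 (0.46 to 0.61).

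VEGFA, the growth factor of blood vessels, had 7.74, 15.6 and 25.4 FPKM at 0, 12 and 48 h, a late difference of 0.70 (0.64 to 0.76), while the 11 measured hypoxia-inducible genes had a median of -0.02 and the 17 glycolysis genes -0.05. MYC had 27.1 and 21.1 FPKM at 12 h and 48 h, a difference of -0.36 (-0.46 to -0.27). Targets of p53 had a median of 0.03 over 16 and NF-kB feedback genes 0.04 over 12. Mitochondrial ribosomal proteins had a median of 0.17, with 53 of 69 higher, where 49.6% of all genes were. Of 56 replication-dependent histone genes 9 were measured, 7 of them lower, against 50.4% of all genes, and the median was -0.33. Several protein coding genes noticed after their values were seen were lower by more than 2-fold, among them MEF2D, a transcription factor gene, with 53.9, 47.3 and 21.7 FPKM and a late difference of -1.12 (-1.20 to -1.05).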
